A study of Mus musculus with 18 samples.

Results

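Semaphorins, plexins and neuropilins form one ligand and receptor system. Its members were the rows of the count table whose symbol names a class 3 to class 7 semaphorin, a plexin of subfamily A to D, or Nrp1 or Nrp2, which gave 31 of 24062 genes. They comprise 20 semaphorins (7 of class 3, 6 of class 4, 2 of class 5, 4 of class 6 and 1 of class 7), 9 plexins (4 of subfamily A, 3 of B, 1 of C and 1 of D) and 2 neuropilins. RNA from C57BL/6 mice was sequenced in 6 groups of 3 libraries: wild-type (WT) and Chd2 het (HET, Chd2+/-) medial ganglionic eminence (MGE) at E13.5, cortex at E13.5 and hippocampus at P45. HET mice are heterozygous at Chd2, which encodes a chromatin remodeller. The labels name no other allele or treatment, do not describe the Chd2 mutation and do not say whether replicates were separate animals or pools, so p-values measure the spread between these libraries, which may be technical. The hippocampus differs from the embryonic tissues in region and in age, and the effects of region and age cannot be told apart. In whole tissue, fewer cells of a type and less RNA per cell cannot be told apart either.

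Semaphorins are extracellular guidance cues that share a sema domain. Those of class 3 are secreted and mostly bind a neuropilin, which holds the ligand, in a complex with a plexin of subfamily A, which carries the signal; Sema3e is the textbook exception that binds Plxnd1 directly. Those of classes 4 to 6 span the membrane and those of class 7 are tethered to it by a lipid anchor, and they bind plexins without a neuropilin: class 4 mainly those of subfamily B, class 6 those of subfamily A and Sema7a Plxnc1. Bound plexins act on small GTPases and so on the cytoskeleton, and growth cones or migrating neurons are usually turned away. In the embryonic forebrain the system is known for steering interneurons that leave the MGE around the striatum and into the cortex, and in the hippocampus for layered mossy fibre and entorhinal projections.

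Promoter sequence is shown for 4 members that sat at the ends of the tissue differences described further on: Sema3e and Plxnb3, with the largest excess in the hippocampus, and Sema3a and Plxnd1, which lay higher in WT cortex than in either other tissue without overlap. They were chosen after their values were seen. Each line gives the 250 bases upstream of the RefSeq start (RefSeq, GRCm38.p6) on the gene's own strand, with each GGGCGG, on either strand, in capitals. The windows are chr5:14025026-14025275 (plus strand) for Sema3e, chrX:73756853-73757102 (plus strand) for Plxnb3, chr5:13396534-13396783 (plus strand) for Sema3a and chr6:115995006-115995255 (minus strand) for Plxnd1.
Sema3e: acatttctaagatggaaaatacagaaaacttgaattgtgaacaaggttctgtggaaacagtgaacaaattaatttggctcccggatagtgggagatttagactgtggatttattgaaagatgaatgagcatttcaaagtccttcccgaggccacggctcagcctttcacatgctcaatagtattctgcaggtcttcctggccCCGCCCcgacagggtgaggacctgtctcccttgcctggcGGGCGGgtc
Plxnb3: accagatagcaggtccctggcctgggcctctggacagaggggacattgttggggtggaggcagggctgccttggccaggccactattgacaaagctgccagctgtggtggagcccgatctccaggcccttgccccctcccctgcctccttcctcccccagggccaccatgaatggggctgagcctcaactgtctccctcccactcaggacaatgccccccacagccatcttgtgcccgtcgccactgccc
Sema3a: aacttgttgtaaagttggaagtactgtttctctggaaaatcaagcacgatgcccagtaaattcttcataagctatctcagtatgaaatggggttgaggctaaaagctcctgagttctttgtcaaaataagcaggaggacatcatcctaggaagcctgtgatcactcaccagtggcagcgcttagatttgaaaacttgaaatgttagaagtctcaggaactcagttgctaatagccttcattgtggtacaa
Plxnd1: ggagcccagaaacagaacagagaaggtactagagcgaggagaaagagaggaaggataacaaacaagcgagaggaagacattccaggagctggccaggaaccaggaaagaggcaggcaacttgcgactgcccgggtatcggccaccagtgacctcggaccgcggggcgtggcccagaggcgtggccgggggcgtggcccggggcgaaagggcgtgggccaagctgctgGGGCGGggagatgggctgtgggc
The Sema3e window held 2 matches to GGGCGG and the Plxnd1 window 1, and those of Plxnb3 and Sema3a held none. By GENCODE M21, Sema3a runs from 13125414 to 13602565, so its RefSeq window lies inside the gene. GC content was 48.0% for Sema3e, 65.2% for Plxnb3, 40.8% for Sema3a and 64.8% for Plxnd1, and the ratio of observed to expected CpG was 0.488, 0.116, 0.194 and 0.668 in the same order. Of the 31 members, 26 had entries in the RefSeq table, with 37 promoters between them. GGGCGG (GC box) stood in 27 of these 37 windows (73.0%) against 32.7% of all 32851 windows of the same length. CCAAT stood in 7 (18.9%) against 33.8%, and TATAAA in 0 against 12.4%, each motif searched on both strands. Motifs could share a window: a window each of Sema6c, Sema4d and Sema6b held both CCAAT and GGGCGG. The median GC content was 64.0% in the members' windows and 52.4% in all windows. These are matches of letters, not binding sites. Plxna1, Plxna4, Sema3b, Sema3f and Sema6a had no entry.

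Several members are neighbours on GRCm38 (mm10; GENCODE M21). On chromosome 5, Sema3d (12383385 to 12588948), Sema3a (13125414 to 13602565), Sema3e (14025276 to 14256689) and Sema3c (17574281 to 17730268) follow each other on the plus strand, with gaps of 536.5, 422.7 and 3317.6 kb. On chromosome 9, Sema3b and Sema3f lie 72.3 kb apart on the minus strand, and Plxnb3 and Plxna3 lie 556.6 kb apart on the plus strand of chromosome X. Neighbours did not share a tissue: in WT libraries the mean of Sema3d and of Sema3e was highest in the hippocampus and that of Sema3a and of Sema3c in the cortex. The labels name a library kit but no strand setting for the counts. Antisense transcripts share exon bases with Plxna1 (Gm26811, 10.7% of its exon bases), Sema4c (D430040D24Rik, 7.27%), Plxnb1 (Gm7628, 2.68%) and Plxna4 (Plxna4os3, 0.78%), and reads from these pairs cannot be told apart.

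Libraries held 26841671 to 38802765 counts. Chd2 checks the labels: it stood at 154, 161 and 175 CPM (the read count scaled to library size, here with a trimmed mean of M values, TMM, over all 18 libraries) in WT MGE and at 139, 136 and 145 in HET MGE, at 143, 154 and 145 against 125, 125 and 125 in cortex, and at 73.4, 69.8 and 78.1 against 63.8, 66.6 and 65.6 in hippocampus. HET libraries lay below WT in all 3 tissues without overlap. So did 5.12% of all genes in MGE, 6.29% in cortex and 11.7% in hippocampus. The log2 differences of Chd2 were small, at -0.24, -0.22 and -0.17 in the same order. No tissue passed the test over all genes for Chd2 (adjusted p from 0.191 to 0.980). The regional markers matched the labels: the 4 MGE markers summed to 1590 to 2000 CPM in MGE and 113 to 148 in cortex, and the 5 dorsal forebrain markers to 1.36 to 12.04 in MGE and 1421 to 2385 in cortex. Among the MGE libraries Xist and the 4 Y-linked genes split exactly with genotype, with Xist at 1737 to 1920 CPM in WT and 0.500 to 1.08 in HET, so that sex and genotype cannot be told apart in MGE. In cortex WT 1, HET 1 and HET 3 were the Xist-low libraries, and all 6 hippocampus libraries were Xist-high. Cortex HET 1 and HET 2 stood apart from HET 3: young neuron markers (4 genes) summed to 1519 and 1487 CPM against 2428, where WT libraries held 2176 to 2496. Radial glia and dividing-cell markers (6 genes) summed to 3512 and 3540 CPM in HET 1 and HET 2 against 2685 in HET 3 and 2762 to 3141 in WT.

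Across the WT tissues, 12 of 31 members were highest by mean CPM in MGE, 6 in cortex and 13 in hippocampus, beside 29.3%, 27.7% and 43% of all 15688 genes tested. For 10, 2 and 11 of these, respectively, the libraries lay above all libraries of both other tissues, beside 16.7%, 14.8% and 35.9% of all genes. Of the 9 plexins 5 were highest in MGE, all 5 without overlap (Plxna2, Plxna3, Plxnb1, Plxnb2 and Plxnc1). Of the 20 semaphorins 9 were highest in hippocampus, 7 without overlap, and 7 in MGE, 5 without overlap. Whether plexins or semaphorins differ from other genes in this was not tested. The tests that follow used edgeR's quasi-likelihood test on the 9 WT libraries with Benjamini-Hochberg adjustment over 15688 genes and a threshold of 0.05, and "rose", "fell", "higher" and "lower" are used for calls past it.

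**Figure D1:**
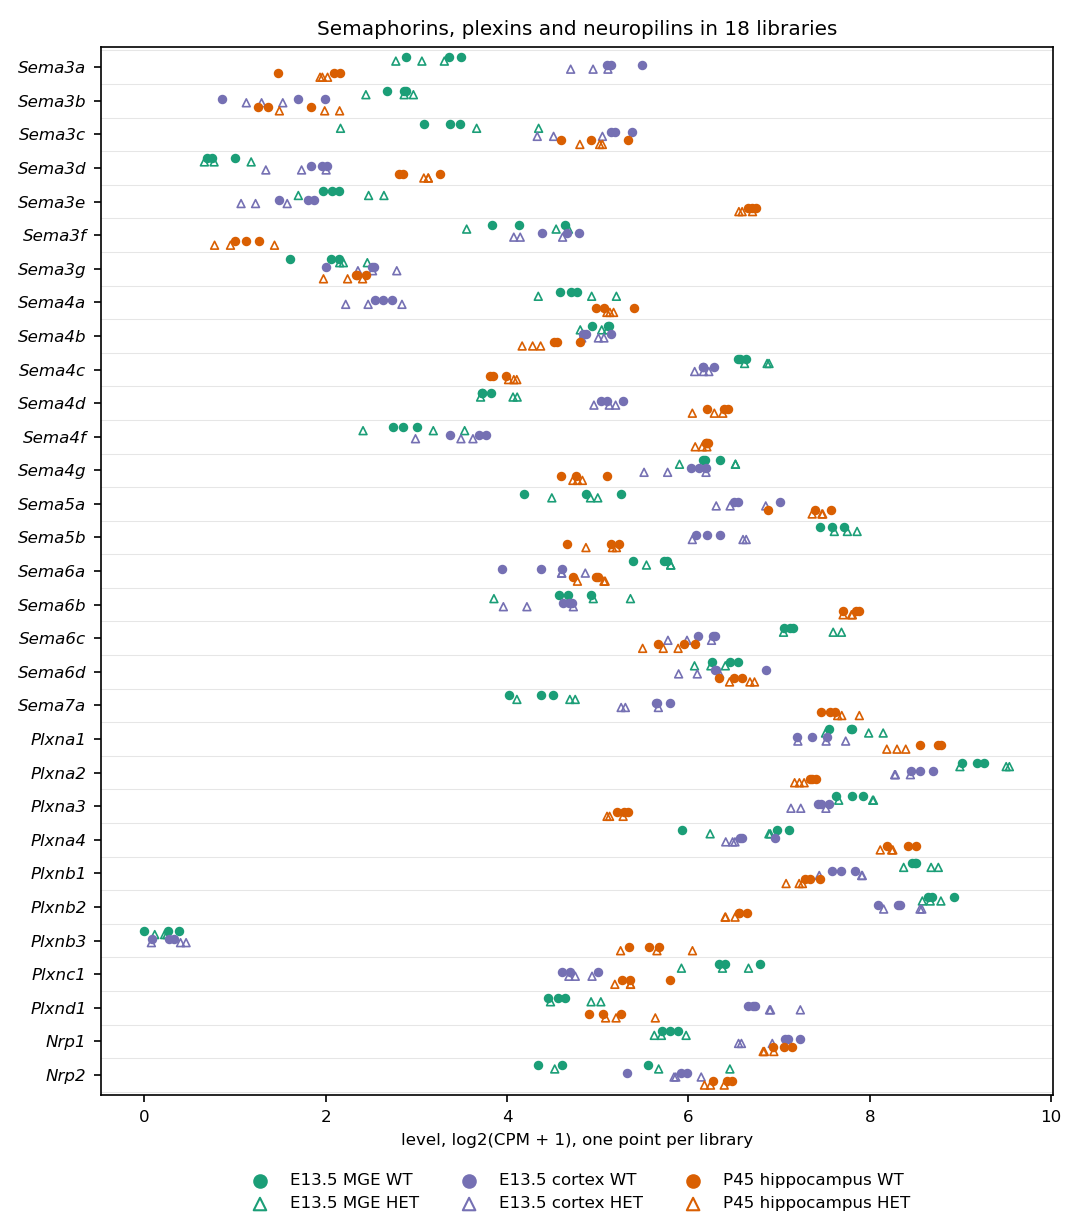
Levels of the 31 members in the 18 libraries; the x axis is log2(CPM + 1), each point is 1 library, filled circles are WT and open triangles HET, and colours mark the tissue. Plxnb3 and Sema3e stand far to the right in the hippocampus, and Sema3f and Sema3a far to the left.

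In hippocampus against cortex, 13 members were higher and 12 lower of 31 tested, where 80.9% of all genes tested were called (40.2% higher and 40.7% lower). Against MGE, 16 were higher and 14 lower, beside 82.3% of all genes (42.2% and 40.1%). Both shares of members are to be read against these backgrounds, at which most genes differ. In MGE against cortex, 13 members were higher and 10 lower, which is 23 of 31 beside 50.4% of all genes (24.6% and 25.7%). Counted by libraries that did not overlap, the members split into 13 higher and 12 lower for hippocampus against cortex (84.2% of all genes did not overlap; 40.6% higher and 43.6% lower), 16 and 14 for hippocampus against MGE (84.9%; 42.6% and 42.3%) and 13 and 9 for MGE against cortex (56.3%; 27.4% and 28.9%). The median absolute log2 difference of the members was 1.29, 1.68 and 0.82 in these 3 comparisons, against 1.12, 1.17 and 0.37 over all genes tested.

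Among the secreted class 3 ligands, Sema3e changed most. Sema3e, which repels Plxnd1-bearing axons and vessels, stood at 99.8, 103 and 106 CPM in the 3 WT hippocampus libraries, at 1.81, 2.49 and 2.67 in cortex and at 2.91, 3.21 and 3.43 in MGE. The hippocampal libraries were all more than an order of magnitude above every embryonic library, with a log2 difference of 5.54 ± 0.13 (SE) from cortex and 5.07 ± 0.12 from MGE (adjusted p = 3.4e-12 and 3.5e-12). Sema3a, the archetypal collapsing factor for growth cones, was instead a cortical gene here, at 34.4, 33.3 and 43.9 CPM in cortex, 6.37, 9.31 and 10.3 in MGE and 1.78, 3.28 and 3.46 in hippocampus. No group of Sema3a libraries overlapped another, and its log2 difference from cortex was -3.65 ± 0.26 in hippocampus and -2.101 ± 0.23 in MGE (adjusted p = 1.2e-07 and 3.5e-05). Sema3f, the main repellent for Nrp2-bearing neurons, was higher in both E13.5 tissues than in P45 hippocampus. It stood at 24.3, 19.8 and 26.8 CPM in cortex, 13.3, 16.5 and 24.0 in MGE, and 1.40, 1.17 and 1.01 in hippocampus. The cortex and MGE ranges of Sema3f overlapped (adjusted p = 0.13), and the hippocampus was lower than either, with log2 differences of -4.25 ± 0.25 from cortex and -3.85 ± 0.25 from MGE.

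The other class 3 ligands were less uniform. Sema3c, which can attract as well as repel, stood at 40.6, 35.6 and 34.3 CPM in cortex and 23.3, 29.4 and 39.2 in hippocampus, ranges that overlapped, and was lower in MGE at 9.35, 7.46 and 10.2 (log2 -2.03 ± 0.18 against cortex). Sema3d was scarce everywhere and rose stepwise in the order MGE (0.612, 1.01 and 0.680 CPM), cortex (2.90, 2.58 and 3.03) and hippocampus (8.62, 6.00 and 6.22), with no overlap between neighbours. Sema3b was higher in MGE (6.397, 5.38 and 6.28 CPM) than in cortex (2.99, 0.807 and 2.24; log2 1.58 ± 0.39) or hippocampus (1.57, 2.56 and 1.38), and the latter tissues overlapped. Sema3g, which falls outside the rule for named members and is given for completeness, ranged from 2.04 to 4.80 CPM over the 9 WT libraries. It was higher in hippocampus than in MGE. That call was lost with upper-quartile scaling, without a filter on low counts and with a block for replicate number. Leaving out MGE WT 2, MGE WT 3 or any 1 hippocampus WT library also ended it.

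Nrp1 and Nrp2, the ligand-holding subunits for class 3, were both lowest in MGE by mean. Nrp1, which favours Sema3a and also binds vascular growth factor, stood at 57.9, 51.5 and 54.8 CPM in WT MGE, 132, 137 and 149 in cortex and 141, 121 and 132 in hippocampus. MGE was below the others without overlap (log2 -1.34 ± 0.08 against cortex), while cortex and hippocampus overlapped (log2 -0.03 ± 0.08, adjusted p = 0.75). Nrp2, which favours Sema3f and Sema3c and falls outside the rule, stood at 46.0, 19.3 and 23.4 CPM in MGE, 59.4, 62.2 and 39.1 in cortex and 88.0, 76.3 and 84.7 in hippocampus. It was higher in hippocampus than in MGE (log2 1.54 ± 0.30, adjusted p = 0.0010). Its MGE and cortex libraries overlapped, and its call between them (log2 -0.85 ± 0.30, adjusted p = 0.041) was lost without a filter on low counts, in a fit of all 18 libraries and without any 1 of MGE WT 2, MGE WT 3, cortex WT 1 or cortex WT 2.

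The signal-carrying plexins A differed in which tissue was highest. Plxna1 stood at 430, 439 and 374 CPM in WT hippocampus, 164, 184 and 145 in cortex and 221, 222 and 187 in MGE, and Plxna4, a partner for Sema3a and Sema6a, at 291, 342 and 364, at 95.4, 93.7 and 123, and at 59.7, 138 and 125 in the same order. Both were higher in hippocampus than in either embryonic tissue, Plxna1 by 1.39 ± 0.10 and Plxna4 by 1.74 ± 0.28 (log2) against cortex. Plxna2, a receptor for Sema6a and Sema6b, ran the other way, at 516, 610 and 581 CPM in MGE, 375, 351 and 414 in cortex and 161, 168 and 164 in hippocampus. Plxna3, on chromosome X, stood at 222, 196 and 242 CPM in MGE, 176, 186 and 172 in cortex and 39.4, 36.0 and 38.0 in hippocampus. For both, the 3 tissues did not overlap; the log2 difference of hippocampus from MGE was -1.74 ± 0.09 for Plxna2 and -2.49 ± 0.08 for Plxna3. Plxnd1, the receptor for Sema3e, was a cortical transcript in the embryo, at 100, 105 and 104 CPM in cortex against 20.9, 23.8 and 22.6 in MGE and 28.9, 37.2 and 32.3 in hippocampus. It fell in MGE against cortex by 2.19 ± 0.10 and in hippocampus against cortex by 1.59 ± 0.09 (log2). Plxnd1 is also an endothelial gene; the 6 endothelial markers summed to 138 to 191 CPM in WT cortex, 99.2 to 120 in WT MGE and 120 to 126 in WT hippocampus, and their part in the Plxnd1 difference was not tested.

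Of the class 4 semaphorins, Sema4a, Sema4d and Sema4f were higher in hippocampus than in both embryonic tissues, and Sema4c and Sema4g were lower. Sema4c, a ligand of Plxnb2, stood at 94.0, 92.3 and 98.6 CPM in WT MGE, 70.7, 76.9 and 70.8 in cortex and 13.4, 13.01 and 14.8 in hippocampus, a log2 difference of -2.73 ± 0.08 between the ends. Sema4f moved the opposite way, from 7.03, 5.71 and 6.25 CPM in MGE through 9.32, 12.6 and 11.95 in cortex to 72.2, 72.2 and 73.5 in hippocampus. The 3 tissues were separate for Sema4c and for Sema4f. Sema4d, a ligand of Plxnb1 that oligodendrocytes make in quantity, stood at 13.2, 12.3 and 12.2 CPM in MGE, 31.8, 33.4 and 37.7 in cortex and 82.7, 85.9 and 73.0 in hippocampus. Sema4a was the member that set MGE most above cortex, at 25.1, 23.0 and 26.2 CPM against 5.22, 4.81 and 5.63 (log2 2.25 ± 0.13, adjusted p = 1.4e-07), with hippocampus at 41.4, 32.6 and 30.5. Sema4g was lower in hippocampus (33.3, 26.1 and 23.1 CPM) than in cortex (64.1, 68.1 and 72.2) or MGE (71.5, 70.4 and 80.2), where the embryonic ranges overlapped. Sema4b, outside the rule, spanned 22.0 to 34.3 CPM over the 9 WT libraries. It was lower in hippocampus than in MGE (log2 -0.39, adjusted p = 0.00724), and its call against cortex (log2 -0.28, adjusted p = 0.0433) was lost with RLE scaling, with DESeq2 and without any 1 of cortex WT 2, hippocampus WT 2 or hippocampus WT 3.

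The plexins B that receive class 4 ligands parted in the same tissues. Plxnb2, prominent in dividing neural precursors, stood at 410, 485 and 398 CPM in MGE, 322, 316 and 271 in cortex and 93.3, 99.2 and 93.4 in hippocampus, and Plxnb1 at 361, 364 and 353, at 204, 227 and 191, and at 161, 173 and 155. Both were separate in the 3 tissues, and both fell in hippocampus against MGE, by 2.12 ± 0.10 and 1.09 ± 0.08 (log2). Plxnb3, a plexin of oligodendrocytes that binds Sema5a, was close to absent in both E13.5 tissues. It had 12, 6 and 0 counts in WT MGE and 7, 2 and 7 in WT cortex, against 1353, 1539 and 1257 counts in WT hippocampus. The hippocampal levels were 46.3, 49.9 and 39.5 CPM. The fitted log2 differences of 8.05 ± 0.39 from cortex and 8.02 ± 0.38 from MGE rest on those few embryonic counts. In these comparisons Plxnb3 passed the filter on low counts only through its hippocampus libraries, the group where it is high. All 6 oligodendrocyte markers were higher in hippocampus than in both embryonic tissues, with sums of 6178 to 7836 CPM in WT hippocampus and 43.8 to 61.9 in the WT embryonic libraries, where Mobp, at 0.0302 to 1.22 CPM, was near 0. Within the hippocampus, the Plxnb3 level and the oligodendrocyte sum were 46.3 and 7394, 49.9 and 7836, and 39.5 and 6178 CPM in WT, and 65.0 and 9698, 37.1 and 6558, and 49.3 and 8842 in HET. The part of oligodendrocyte number in the Plxnb3 levels was not tested.

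Sema5b stood at 210, 190 and 175 CPM in MGE, 66.6, 80.8 and 73.0 in cortex and 24.2, 34.3 and 36.6 in hippocampus, and Sema5a, its closest relative, at 28.2, 37.2 and 17.2, at 89.5, 92.7 and 128, and at 116, 167 and 189. The pair differed in direction between the embryonic tissues: against cortex, the log2 difference of MGE was 1.39 ± 0.13 for Sema5b and -1.90 ± 0.29 for Sema5a. Sema5a overlapped between hippocampus and cortex, and its call there (log2 0.67, adjusted p = 0.0474) was lost with upper-quartile scaling, without a filter and without any 1 of cortex WT 1, cortex WT 2, hippocampus WT 2 or hippocampus WT 3. Sema6b, a mossy fibre ligand for plexins A, stood at 234, 229 and 207 CPM in hippocampus, 23.5, 25.4 and 24.7 in cortex and 22.8, 24.5 and 29.5 in MGE. It rose by 3.25 ± 0.10 against cortex and 3.18 ± 0.10 against MGE (log2), and the embryonic tissues overlapped. Sema6c and Sema6a were higher in MGE than in cortex, Sema6c at 131, 138 and 141 CPM against 67.8, 76.0 and 77.4 and Sema6a at 53.4, 52.3 and 40.9 against 23.4, 19.8 and 14.4. Sema6d, by contrast, stayed between 75.9 and 115 CPM in all 9 WT libraries and was called in no WT comparison (log2 0.03 ± 0.15 for hippocampus against cortex, adjusted p = 0.86). Sema7a, which promotes axon growth, stepped up from MGE (15.3, 19.7 and 21.7 CPM) to cortex (49.1, 49.5 and 54.4) and hippocampus (175, 188 and 195), with no overlap. Its receptor Plxnc1 was highest in MGE, at 83.5, 109 and 80.2 CPM, against 31.1, 24.9 and 23.4 in cortex and 54.6, 39.9 and 37.4 in hippocampus (log2 1.79 ± 0.18 for MGE against cortex).

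Levels of different genes compare only per length, so CPM were divided by the summed exon length of each gene in kilobases. On this scale the 20 semaphorins together gave 127 ± 2.29 CPM per kb (SD, n = 3) in WT MGE, 112 ± 5.60 in cortex and 206 ± 4.13 in hippocampus, and the 9 plexins 199 ± 11.2, 148 ± 5.23 and 130 ± 5.505. The neuropilins stood at 8.09 ± 1.53, 18.8 ± 0.39 and 20.4 ± 1.504. Summed plexin level thus exceeded summed semaphorin level in all 6 WT embryonic libraries, and the reverse held in all 3 WT hippocampus libraries. In MGE Plxnb2 gave 28.02% of the plexin sum (55.8 CPM per kb) and Sema5b 21.2% of the semaphorin sum (27.1). In cortex Plxnb2 led the plexins at 39.3 CPM per kb, and Sema4c (15.8 ± 0.78) and Sema7a (15.5 ± 0.90) did not differ beyond their SD. These levels depend on the length used. Per kb of longest transcript, WT cortex had Sema4c at 18.7, Sema5b at 15.8 and Sema7a at 15.5. Nrp1 there stood at 38.2 on that scale, against 14.2 by summed exon length, which all sums used. In hippocampus Plxna1 gave 35.3% of the plexin sum (45.8 CPM per kb), Plxna4 18.2% (23.6), and Sema6b (56.4 ± 3.61) and Sema7a (56.3 ± 3.04) 27.3% each of the semaphorin sum.

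**Figure D2:**
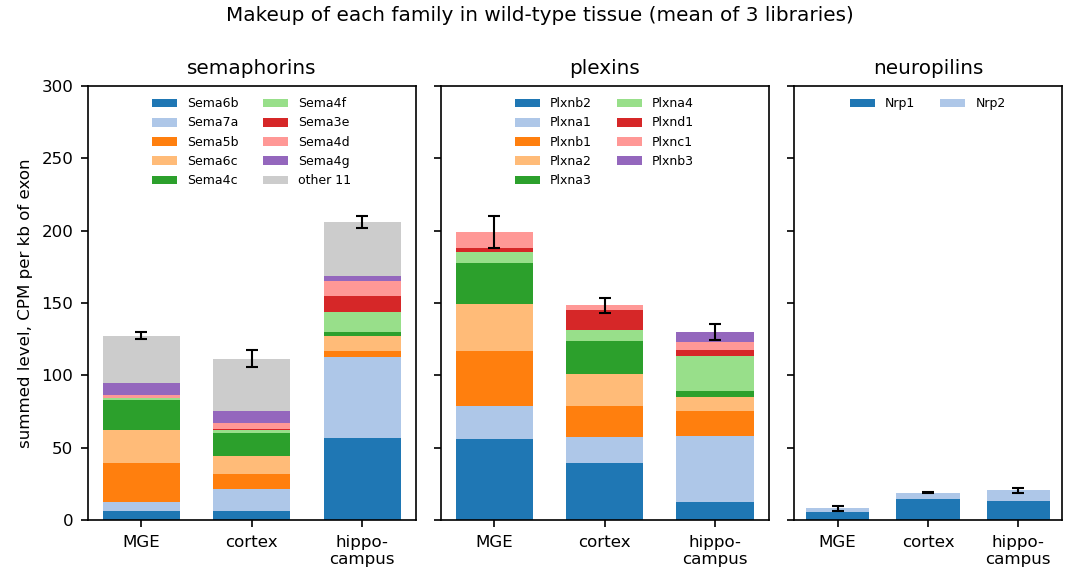
Makeup of each family in WT tissue; the y axis is the summed level in CPM per kb of exon, stacked by gene as means of 3 libraries, with error bars of 1 SD of the sum over libraries. Plxnb2 shrinks from 55.8 in MGE to 12.3 in hippocampus while Plxna1 grows from 23.2 to 45.8, and Sema6b and Sema7a are the tallest segments of the hippocampal semaphorins.

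The same 3 tissue comparisons in the 9 HET libraries, which share no library with the WT comparisons, gave log2 differences that departed from those in WT by a median of 0.27, 0.25 and 0.29 over the members and of 0.24, 0.19 and 0.19 over all genes, in the order hippocampus against cortex, hippocampus against MGE and MGE against cortex. In HET hippocampus against HET cortex, 15 members were higher and 11 lower (78.8% of all genes called; 38.6% higher and 40.2% lower), and 24 calls were shared with WT in the same direction, 96% of the WT calls and 92.3% of the HET calls. Against HET MGE, 14 were higher and 14 lower (80.1% of all genes; 40.6% and 39.5%), with 27 shared, 90% and 96.4%. All HET hippocampus libraries were Xist-high and all HET MGE libraries Xist-low, so sex and tissue cannot be told apart in that comparison. In HET MGE against HET cortex, 11 were higher and 7 lower (33.5% of all genes; 14.8% and 18.7%), and all 18 were shared, which is 78.3% of the 23 WT calls. Over all genes tested in both, the shared share of WT calls was 89.9%, 91.8% and 55.9%, and that of HET calls 92.3%, 94.4% and 84%. No member was called in opposite directions in WT and HET. Sema3e, at 103, 93.1 and 95.5 CPM in HET hippocampus and 1.34, 1.095 and 1.98 in HET cortex, differed there by 6.05 ± 0.31 (log2). Plxnb3 (65.0, 37.1 and 49.3 CPM in HET hippocampus) had 10, 11 and 2 counts in HET cortex and 3, 6 and 7 in HET MGE. Its shared hippocampus calls thus rest on few embryonic counts, and it passed the filter only through the hippocampus libraries. Sema6d, called in no WT comparison, was higher in HET hippocampus (105, 86.7 and 101 CPM) than in HET cortex (67.5, 58.4 and 80.3; log2 0.53 ± 0.14, adjusted p = 0.0044), while the test of the difference between the genotypes did not pass (log2 0.53 ± 0.21, adjusted p = 0.346).

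**Figure D3:**
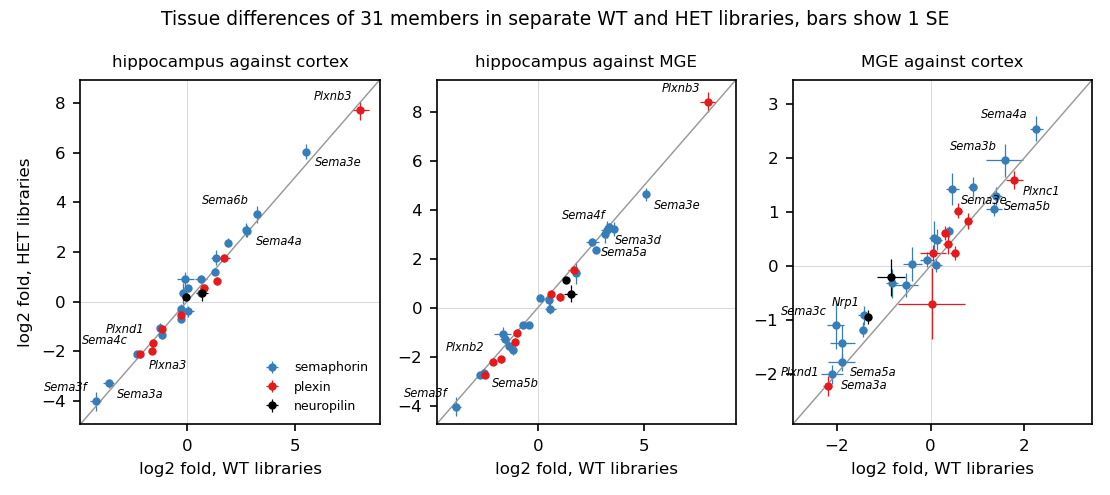
Tissue differences of the 31 members in WT libraries (x axis, log2 fold) and in HET libraries (y axis, log2 fold), for 3 pairs of tissues; points are genes, bars 1 SE and the line marks equality. Points lie near the line, from Plxnb3 (8.05 and 7.71 in hippocampus against cortex) to Sema3f (-4.25 and -4.03). The Plxnb3 values rest on few embryonic counts, and Plxnb3 passed the filter on low counts only through its hippocampus libraries.

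In the P45 hippocampus, 1 of 31 members passed the test between genotypes, beside 1.07% of all 15283 genes tested (0.811% lower and 0.262% higher). Plxna1, the most abundant hippocampal plexin per kb, had WT levels of 430, 439 and 374 CPM and HET levels of 336, 291 and 314. Every HET library was below every WT library, and Plxna1 was lower in HET, with a log2 difference of -0.40 ± 0.08 (adjusted p = 0.0357). The call was lost without WT 2 (adjusted p = 0.176), HET 2 (0.0817) or HET 3 (0.216), and also with limma-voom (0.0529), with a covariate for Y-linked genes (0.0739) and in a fit of all 18 libraries (0.734), among others, with the log2 difference between -0.48 and -0.35 throughout 14 alternatives and adjusted p from 0.000218 to 0.734. Exons of Plxna1 overlap those of antisense Gm26811, so part of its reads could come from that gene.

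Of the other hippocampal receptors, Plxna2 stood at 161, 168 and 164 CPM in WT and 143, 148 and 154 in HET (log2 -0.14 ± 0.05, adjusted p = 0.222), and Plxnb1, Plxnb2 and Plxna4 had log2 values of -0.17 ± 0.07, -0.14 ± 0.06 and -0.17 ± 0.07 (adjusted p = 0.248, 0.265 and 0.291). These were chosen after their values were seen. Of the 9 plexins 7 had a log2 value below 0, with a median of -0.14, against a median of 0.00 over all genes tested, and 4 plexins (Plxna1, Plxna2, Plxnb1 and Plxnb2) had HET below WT without overlap, as did 11.7% of all genes. Over the family 2 members (Sema7a and Sema4c) were higher and 5 lower without overlap, beside 9.11% and 11.7% of all genes (20.8% in either direction). Summed plexin level was 129, 136 and 125 CPM per kb in WT and 119, 104 and 115 in HET. Semaphorins showed no common direction, with 11 of 20 below 0 and a median of -0.02. Sema4b, a synaptic transmembrane ligand, stood at 26.9, 22.5 and 22.0 CPM against 18.5, 19.7 and 17.0 (log2 -0.37 ± 0.10, adjusted p = 0.113), and Sema7a at 175, 188 and 195 against 206, 199 and 235 (log2 0.20 ± 0.07, adjusted p = 0.181). At an unadjusted p under 0.05 were 9 of 31 members, where 15.6% of all genes were. The 6 endothelial markers moved with genotype in these libraries: their sum was 126, 122 and 120 CPM in WT and 89.2, 88.1 and 80.0 in HET, all 6 were lower in HET without overlap, and Flt1 and Esam passed the test. Their part in the Plxna1 difference was not tested.

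**Figure D4:**
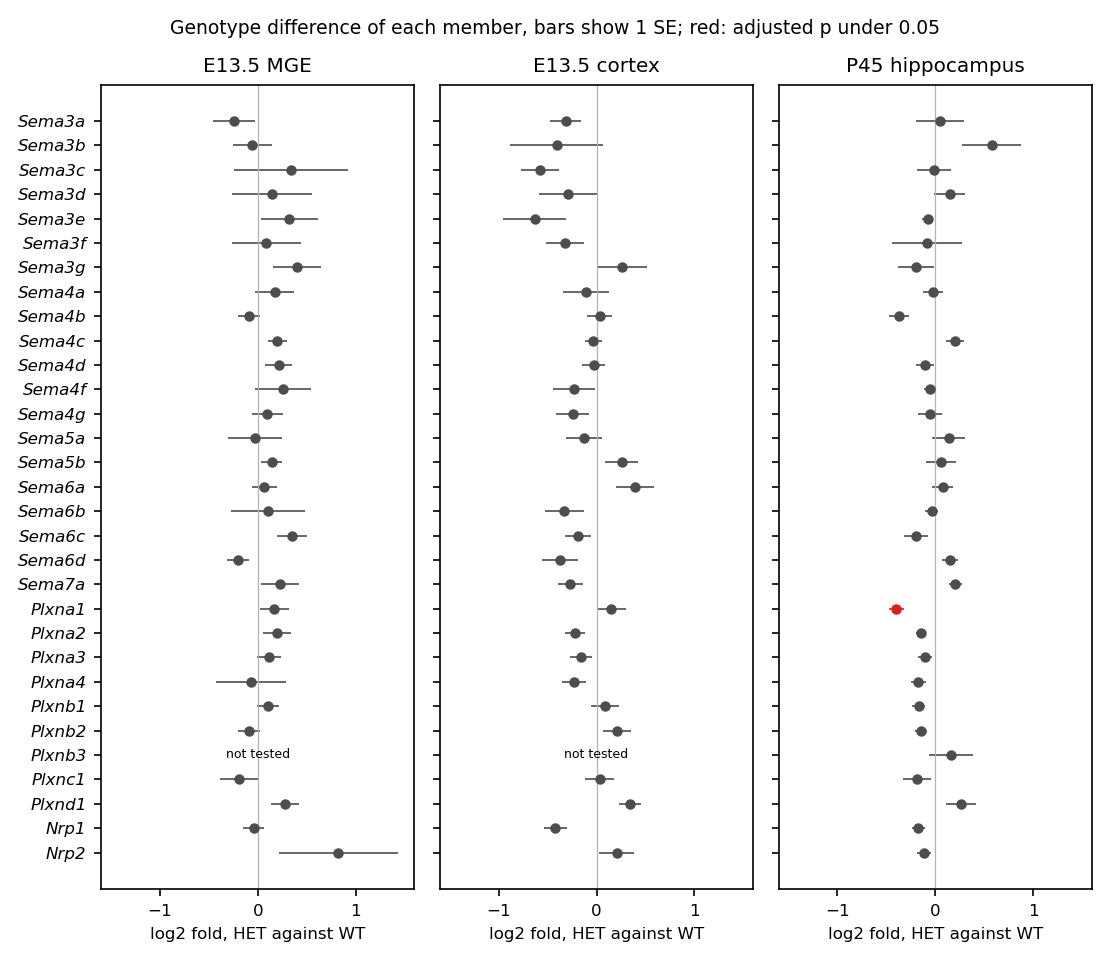
Log2 difference of HET from WT for each member in the 3 tissues, with bars of 1 SE; red marks an adjusted p under 0.05. Plxna1 in the hippocampus (-0.40) is the red point. Values below 0 number 20 of 30 in cortex, 20 of 31 in hippocampus and 9 of 30 in MGE. Over all genes tested they number 7046 of 14757, 7435 of 15283 and 7006 of 14624 in the same order.

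In E13.5 cortex, 0 of 30 tested members passed (0% of all 14757 genes did); 3 members and 7.89% of all genes had an unadjusted p under 0.05, and DESeq2 and limma-voom also called 0 members. For Nrp1 the WT levels were 132, 137 and 149 CPM and the HET levels 92.9, 94.99 and 121 (log2 -0.42 ± 0.12), and Sema3c, which signals through neuropilins, at 40.6, 35.6 and 34.3 against 19.2, 21.8 and 32.2 (log2 -0.58 ± 0.20). Plxna2 stood at 375, 351 and 414 CPM in WT against 310, 309 and 348 in HET (log2 -0.22 ± 0.10). Plxnd1 ran the other way, at 100, 105 and 104 CPM against 119, 150 and 118 (log2 0.34 ± 0.11). All 4 separated the genotypes without overlap and had an adjusted p of 0.578; in all, 5 of 30 members did not overlap (4 lower and 1 higher), beside 11% of all genes (6.29% and 4.69%). Of the 20 semaphorins, 16 had a log2 value below 0, with a median of -0.24, against 0.01 over all genes tested.

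These results rested on cortex HET 3. In Nrp1, Sema3c and Plxna2 it was the HET library nearest to WT. Without it, 13 of 30 members passed, 9 lower and 4 higher, beside 30.7% of all 14961 genes, of which more were higher (17.7%) than lower (13%). Lower were Sema3c (log2 -0.83 ± 0.11), Sema6b (-0.59), Nrp1 (-0.55 ± 0.07), Sema3f (-0.52), Sema4g (-0.45), Sema7a (-0.41), Sema6c (-0.32), Plxna3 (-0.28) and Plxna2 (-0.28). Higher were Sema5b (0.43), Plxnd1 (0.40 ± 0.09), Plxnb2 (0.34) and Plxnb1 (0.23). In several of these 13, HET 3 lay nearest to or within the WT range, apart from HET 1 and HET 2. Sema3f stood at 16.7, 15.8 and 23.5 CPM in HET 1, 2 and 3 against 19.8 to 26.8 in WT. Plxna3 stood at 139, 150 and 182 against 172 to 186, and Sema6c at 62.3, 53.7 and 75.4 against 67.8 to 77.4. These and the 3 that follow were picked after their values were seen. Sema6b stood at 14.6, 17.6 and 25.6 CPM in HET 1, 2 and 3 against 23.5 to 25.4 in WT, Sema7a at 38.5, 37.3 and 49.9 against 49.1 to 54.4, and Plxnb2 at 375, 380 and 284 against 271 to 322. Plxnd1 did not follow this split, with HET 1 (119 CPM) and HET 3 (118) alike and HET 2 at 150. In the same libraries the young neuron sum was low and the dividing-cell sum high in HET 1 and HET 2 only, as given above. Markers of pericytes and meninges (6 genes) summed to 453 to 645 CPM in HET and 302 to 481 in WT cortex, and those of choroid plexus (4 genes) ranged from 3.81 to 1511 CPM over the 6 libraries. The part of cell makeup in these differences was not tested.

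**Figure D5:**
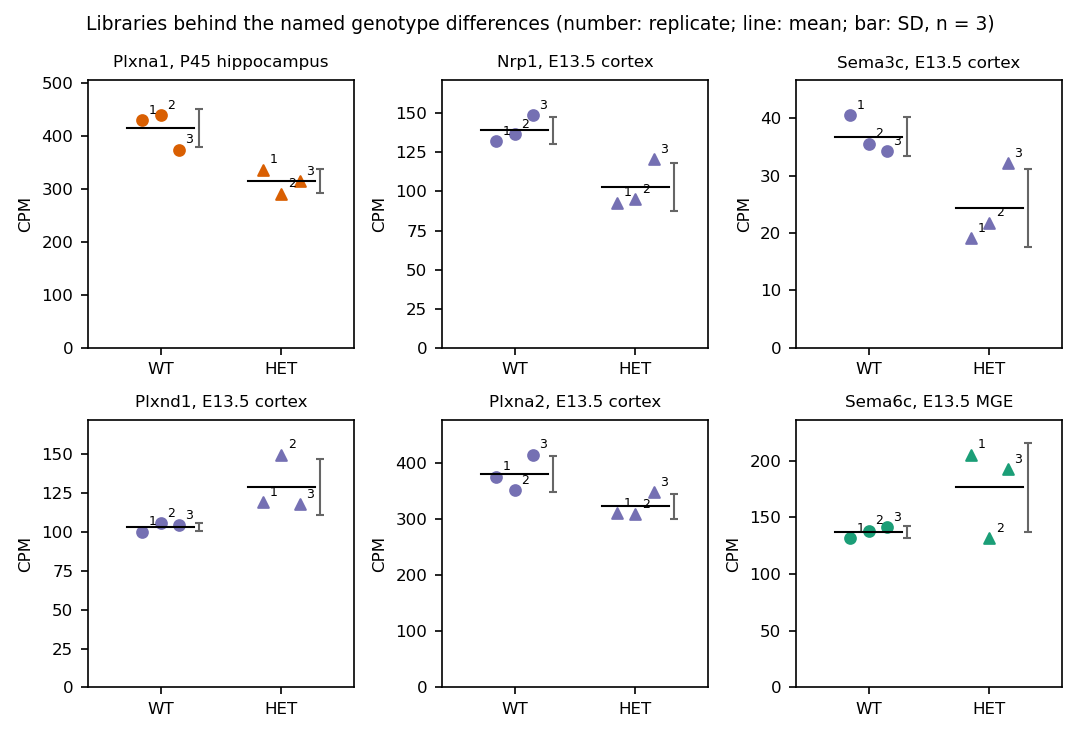
CPM in each library for 6 named gene and tissue pairs; numbers give the replicate, horizontal lines the mean and grey bars 1 SD (n = 3). HET 3 is the HET library closest to WT for Nrp1, Sema3c and Plxna2 in cortex, Plxna1 in hippocampus separates the genotypes, and Sema6c in MGE does not.

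In E13.5 MGE, 0 of 30 tested members passed, beside 0.0479% of all 14624 genes, and DESeq2 and limma-voom also called 0; 1 member and 4.51% of all genes had an unadjusted p under 0.05. The 7 genes called are few, and Xist and the 4 Y-linked genes are 5 of them. Sema6c stood at 131, 138 and 141 CPM in WT and 205, 131 and 193 in HET (log2 0.35 ± 0.15), Sema4c at 94.0, 92.3 and 98.6 against 116, 97.3 and 118 (log2 0.20 ± 0.10), and Plxnd1 at 20.9, 23.8 and 22.6 against 29.4, 21.3 and 31.8 (log2 0.28 ± 0.15). Sema6d stood at 75.9, 92.5 and 87.2 CPM against 83.9, 66.1 and 75.0 (log2 -0.20 ± 0.11). Each pair of groups overlapped, and each adjusted p was 0.980. Of 30 members 1 did not overlap (Sema3g, higher, named after its values were seen), beside 10.3% of all genes (5.13% higher and 5.12% lower). HET 2 stood apart from HET 1 and HET 3 in Sema6c, Sema4c and Plxnd1, lying within or next to the WT range. It was also the lowest HET library for Nrp2 (86.9, 22.0 and 49.998 CPM in HET 1, 2 and 3), Sema3c (19.4, 3.48 and 11.7) and Plxna2 (725, 509 and 743), chosen after their values were seen. Cajal-Retzius markers (4 genes) summed to 84.4, 8.25 and 32.3 CPM in the same libraries and to 18.6 to 32.1 in WT, and their part in these levels was not tested. Plxna3, on chromosome X, stood at 222, 196 and 242 CPM in WT and 261, 201 and 262 in HET. These groups overlapped, and sex and genotype cannot be told apart between them.

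Tests over all 18 libraries asked whether the genotype difference was common to the tissues or differed between them. Sex and genotype cannot be told apart in MGE, so the average and both differences from MGE carry that limit. Of 31 members 0 passed for the average over tissues, beside 0.031% of 16125 genes, and 4 had an unadjusted p under 0.05 (8.79% of all genes). Nrp1 came closest, with an average log2 value of -0.22 ± 0.06 (adjusted p = 0.418), made of -0.04 in MGE, -0.42 in cortex and -0.17 in hippocampus. For the differences between tissues 0 members passed as well, beside 0%, 0.0062% and 0.0124% of all genes for cortex minus MGE, hippocampus minus MGE and hippocampus minus cortex, with 6, 2 and 5 members at an unadjusted p under 0.05 (7.01%, 7.36% and 12.8% of all genes). DESeq2 and limma-voom called 0 members in all 4 tests. Lowest in p were Sema3e for cortex minus MGE (log2 -0.95, adjusted p = 0.710) and Plxna1 for hippocampus minus MGE (-0.57 ± 0.21, adjusted p = 0.630) and hippocampus minus cortex (-0.54 ± 0.21, adjusted p = 0.341). Without cortex HET 3, Nrp1 passed for the average (log2 -0.27, adjusted p = 0.00740) and for cortex minus MGE, beside 7.09% and 6.4% of all genes, and 5 members (Nrp1, Plxna1, Plxnb2, Sema6d and Sema7a) passed for hippocampus minus cortex, beside 17.1% of all genes, which is close to the share of members.

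Genes that plexins act with and through were taken as 3 lists: 14 co-receptors and partners (13 tested; Cd72 was not), 29 cytosolic transducers and 5 collapsin response mediator proteins. Between genotypes 0 of the 47 tested genes passed in any tissue, with the backgrounds given above. Among tissues, hippocampus against cortex showed 4 higher and 6 lower of 13 co-receptors, 16 and 8 of 29 transducers and 1 and 3 of 5 mediator proteins, beside 80.9% of all genes. Against MGE the counts were 7 and 5, 14 and 7, and 0 and 5, beside 82.3% of all genes. Mical2, an oxidoreductase that takes actin filaments apart, stood at 718, 825 and 796 CPM in WT hippocampus, 7.21, 7.75 and 3.94 in cortex and 3.80, 4.12 and 4.63 in MGE (log2 7.001 ± 0.22 against cortex). Its paralogue Mical1 was lower in hippocampus than in cortex (log2 -1.91 ± 0.09). Dpysl3 and Dpysl5, mediators of Sema3a collapse in young axons, were lower in hippocampus than in cortex, with log2 differences of -3.85 ± 0.16 and -2.86 ± 0.10 and Dpysl3 at 80.8, 59.2 and 62.4 CPM against 934, 1067 and 1045. Of the partners, Itgb1, the integrin chain that Sema7a binds, fell in hippocampus against cortex by 2.27 ± 0.08 and Nrcam, an adhesion molecule that joins Nrp2, rose by 1.74 ± 0.11. In MGE against cortex, 1 co-receptor was higher and 7 lower, 12 transducers higher and 8 lower, and 3 mediator proteins higher and 0 lower, beside 50.4% of all genes; Cntn2 (log2 -4.43 ± 0.27) and Chl1 (-2.95 ± 0.18) led. Chl1, a partner of Nrp1, followed the split of the cortex HET libraries, at 158, 162 and 218 CPM in WT and 45.9, 40.7 and 145 in HET (log2 -1.20 ± 0.46, adjusted p = 0.578). In hippocampus the lowest p among the lists was for Farp1, a plexin A effector, at 76.3, 77.7 and 69.7 CPM in WT and 66.5, 58.3 and 57.7 in HET (log2 -0.29 ± 0.07, adjusted p = 0.0859), and Kdr, a receptor that endothelial cells make, was at 12.96, 12.8 and 14.1 against 11.0, 9.79 and 9.33 (adjusted p = 0.101), beside the lower endothelial sum given above.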

How the data were processed

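RNA of 18 libraries, 3 per genotype and tissue, was selected for poly(A) and made into libraries with the NEBNext Ultra kit, per the labels' protocols. Build mm10, TopHat2 2.1.1, DESeq2, Trimmomatic, SAMtools and FastQC are listed, per the submitters' processing notes. Which program counted the reads, with which annotation and strand, is not stated in the labels. The deposited values are raw read counts per gene, whole numbers in 18 columns of a table of 24062 genes, all of which were mapped to samples. From them, edgeR 4.0.16 (R 4.3.3; filterByExpr with a minimum count of 10 and a minimum total of 15, TMM scaling, robust quasi-likelihood F test) gave log2 differences with SE as the size divided by the square root of F, and Benjamini-Hochberg adjusted p over all genes tested, with a threshold of 0.05. Genotypes were compared within each tissue (6 libraries), tissues within WT and within HET (9 libraries each), and genotype effects across tissues in one fit (18 libraries). The filter left 30 members in MGE and in cortex, where Plxnb3 was dropped, and 31 in the other fits. It can be passed through a single group, as Plxnb3 did through the hippocampus libraries in the fits across tissues. CPM and non-overlap use 1 TMM scaling of all 18 libraries. Lengths, positions and overlaps come from GENCODE M21 (GRCm38), promoters from RefSeq.

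Values per library were given for members past the threshold between genotypes, or otherwise the 4 with the lowest p; in WT tissue comparisons for up to 8 higher and 8 lower non-overlapping calls with the largest log2 difference; for genotype effects across tissues for calls or else the lowest p; and for up to 4 pathway genes per list with the lowest p. The members and lists were chosen with earlier results of these data known. Replicates of a group differed by more than sampling noise (chi-square per degree of freedom from 6.00 to 106). Replicate numbers did not pair the samples: deviations of same-numbered samples correlated between -0.225 and 0.196 over 16141 genes. Scripts were tested on simulated counts. As alternatives, scaling was changed (upper-quartile, RLE), the filter was dropped, and DESeq2 1.42.0 and limma-voom (limma 3.58.1) were run, as were a replicate block, 1 fit of all libraries, a Y-linked covariate, each library left out, and the longest transcript as length.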

Additional observations from a re-analysis of the deposited data

How the results depend on the processing

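Counts of called members held within 1.5 times of the reported count, or at 0, in 264 combinations of count and alternative and moved further in 11, and no direction of a named member reversed. In hippocampus the count of members between genotypes was 1, and 0 with limma-voom, with the replicate block, in 1 fit of all 18 libraries and with the Y-linked covariate, which varies little there since all 6 libraries are Xist-high; leaving out single libraries gave 0 to 1. Over all genes the count there was 164, against 445 with DESeq2, 291 without a filter, 80 with the replicate block, 87 with the Y-linked covariate, 11 in 1 fit, and 23 to 292 with 1 library left out. In cortex the count of members was 0 to 13 with single libraries left out, the average over tissues gave 0 to 1, cortex minus MGE 0 to 1 and hippocampus minus cortex 0 to 5, each upper value without cortex HET 3; the cause was not tested. The replicate block, whose numbers do not pair the samples, changed no other call between genotypes (0 members in MGE and 0 in cortex). In WT hippocampus against cortex it ended the calls of Sema4b and Sema5a and added Nrp2. Under some other alternatives the calls of Sema6c in WT hippocampus against cortex and of Sema3e and Plxna1 in WT MGE against cortex were lost. Upper-quartile scaling moved the median log2 difference of all genes in WT hippocampus against cortex from -0.01 to -0.11. It also changed the WT MGE against cortex split of all genes from 3866 higher and 4039 lower to 3348 and 4520, with 13 members higher and 10 lower in both. The longest transcript as length was tried on the leading level per kb of each family in each WT tissue. Of these levels 7 moved by more than their SD, and only those of Plxna1 and Sema6b in hippocampus did not. Depth of 26841671 to 38802765 counts leaves Plxnb3 at 0 to 12 counts a library in the E13.5 tissues, too few to compare genotypes.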
